A study of Mus musculus with 6 samples.

Results

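The genes described here are 10 genes of glycolysis, Hk2, Gpi1, Pfkl, Aldoa, Tpi1, Pgk1, Pgam1, Eno1, Pkm and Ldha, listed by name and read from a table of 54838 genes. All 10 were found in the table, and all 10 passed the filter on low counts that left 11092 genes for testing. They were measured by 3' end RNA sequencing of I1DN cells, a mouse acute myeloid leukemia (AML), from 3 mice given AG636 and 3 mice given vehicle. AG636 is an inhibitor of dihydroorotate dehydrogenase (DHODH), a mitochondrial enzyme of de novo pyrimidine synthesis, and was given by oral gavage b.i.d. at 100 mg/kg. The comparison asks how leukemic cells change their transcripts when pyrimidine synthesis is blocked in the animal.

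Both groups carried the same leukemia on a C57BL/6 background, with the alleles IDH1R132H, DNMT3AR882H and NrasG12D, and both grew it in Ptprca recipients that had been irradiated at a sublethal dose. The leukemia had been made by introducing the 3 alleles into hematopoietic stem and progenitor cells of fetal liver, and was passed on as frozen cells of a moribund mouse, so that the 6 mice may hold descendants of a single leukemia. Recipient animals kept their own surviving blood cells. The cells were sorted from bone marrow and spleen, with a gate described in one place as cKit+ CD11b- and in another as cKit-high CD11b-low, and treatment lasted 1 day by one description of these samples and 4 days by another. The age of the mice was not given in the sources used here.

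Glycolysis splits glucose into pyruvate in the cytosol and yields ATP and NADH, and lactate dehydrogenase then turns pyruvate into lactate and restores NAD+. Hexokinase, phosphofructokinase and pyruvate kinase catalyze the practically irreversible steps at which flux is controlled, and several steps can be run by isozymes from different genes. Dividing blood cells and leukemic cells use glycolysis heavily, and its intermediates also feed the pentose phosphate pathway, which makes the ribose of nucleotides. MYC and the hypoxia-inducible factors (HIF) are known regulators of many of these genes.

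Promoters are shown for Pfkl, Pkm and Ldha, the 3 genes whose values did not overlap between the groups. The sequences are from RefSeq on GRCm38.p6 and run from 250 bases before to 50 bases after a transcript start, read 5' to 3' on the gene's own strand. Capitals mark matches on either strand to CACGTG (an E-box, the kind of site bound by MYC and MAX), ACGTG (the core of a hypoxia response element, which also lies inside CACGTG) and GGGCGG (a GC box, bound by SP family factors). A match is a description of the letters and not a site. Pfkl lies at chr10:78009758-78010057 on the minus strand, the Pkm windows at chr9:59656326-59656625 and chr9:59656977-59657276 on the plus strand, and Ldha at chr7:46845554-46845853 on the plus strand.
Pfkl: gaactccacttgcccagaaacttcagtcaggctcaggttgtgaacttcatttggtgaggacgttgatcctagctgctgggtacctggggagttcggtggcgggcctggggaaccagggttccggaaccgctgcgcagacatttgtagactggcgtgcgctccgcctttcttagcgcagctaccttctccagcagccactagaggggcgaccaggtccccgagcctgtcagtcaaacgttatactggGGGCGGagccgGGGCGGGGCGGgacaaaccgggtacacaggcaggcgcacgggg
Pkm, upstream start: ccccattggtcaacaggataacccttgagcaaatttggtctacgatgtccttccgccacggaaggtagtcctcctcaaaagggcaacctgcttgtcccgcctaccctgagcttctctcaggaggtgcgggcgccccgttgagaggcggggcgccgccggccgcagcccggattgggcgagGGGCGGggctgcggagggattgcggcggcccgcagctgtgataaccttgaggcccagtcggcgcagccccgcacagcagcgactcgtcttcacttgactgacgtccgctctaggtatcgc
Pkm, downstream start: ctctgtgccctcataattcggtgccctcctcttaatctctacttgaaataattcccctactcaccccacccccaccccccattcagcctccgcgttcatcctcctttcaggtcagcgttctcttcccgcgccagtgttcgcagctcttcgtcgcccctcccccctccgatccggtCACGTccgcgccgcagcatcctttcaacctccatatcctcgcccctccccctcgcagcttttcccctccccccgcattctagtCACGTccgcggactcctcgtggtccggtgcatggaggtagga
Ldha: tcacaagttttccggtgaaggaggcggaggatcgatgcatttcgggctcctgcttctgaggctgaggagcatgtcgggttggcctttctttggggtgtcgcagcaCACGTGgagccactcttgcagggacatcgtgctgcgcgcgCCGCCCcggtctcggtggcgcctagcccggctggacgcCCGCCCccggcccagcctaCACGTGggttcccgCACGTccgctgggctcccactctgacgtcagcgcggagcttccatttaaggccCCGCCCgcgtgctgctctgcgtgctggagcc

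The Ldha window held 2 copies of CACGTG, and Ldha alone of the 10 genes had that sequence, which occurred in 8.09% of the 27025 genes with a RefSeq window. ACGTG was present for 6 of the 10 genes, namely Hk2, Aldoa, Pgk1, Pgam1, Pkm and Ldha, and in 21.8% of all genes. Pfkl had neither sequence. All 10 genes held GGGCGG in at least 1 window, against 38.2% of all genes, and none held AANATGGC, the core of the YY1 motif, which 6.96% of all genes held. These shares are over all 27025 genes with a window, whether or not they passed the filter on low counts. The shares among genes that passed it were not counted, and genes with several windows had more places for a match. A second Ldha window at a later start, at chr7:46846832-46847131, contained none of the 4 sequences.

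The libraries held between 4634963 and 7906589 counts, at which 3 counts correspond to 0.392 to 0.637 CPM, the unit of level used here, in which counts are scaled to libraries of equal size. The 10 genes together took between 0.218% and 0.340% of the counts of a library. Kit, the progenitor marker used in the sort, was detected in every sample at 31.8 to 46.3 CPM. Ptprc, which encodes the general leukocyte marker CD45, was at 98.4 to 129 CPM in Vehicle and 155 to 197 CPM in AG636 samples and rose (log2 fold change 0.65, adjusted p = 0.0142 by edgeR). Transcripts used as markers of other blood cells were also present. Whether they came from such cells or from the leukemic cells was not tested. The summed level of 9 neutrophil markers was 1036 to 2368 CPM in the Vehicle samples and 2888 to 5888 CPM in the AG636 samples. Of these 9, 7 rose (edgeR, adjusted p under 0.05), where 10.3% of all tested genes rose. The summed level of 8 monocyte and macrophage markers was 74.3 to 126 CPM against 189 to 293 CPM. Of these 8, 4 rose, against the same 10.3% of all tested genes, with Itgam, which encodes CD11b, among them. The summed level of 9 erythroid markers overlapped at 1874 to 5050 CPM against 2006 to 3532 CPM, with the highest sum in Vehicle 1, and Klf1 fell. T cell markers summed to at most 14.9 CPM and B cell markers to at most 111 CPM. Stromal and endothelial markers summed to at most 245.0 CPM, with 2 of these last 7 genes at 0 in every sample. That sum, in AG636 3, was nearly all Pecam1, at 244.8 CPM, the only 1 of the 7 genes that passed the filter. In such bulk samples, fewer cells of a type and less RNA per cell cannot be told apart.

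Of the 10 genes, 2 fell in AG636-treated cells, Pfkl and Ldha, and none rose by edgeR's quasi-likelihood test at a Benjamini-Hochberg adjusted p of 0.05 over all genes tested, the threshold for a gene to be called. Of all tested genes, 11.0% were lower, 10.3% were higher and 21.3% changed in either direction, so the count of 2 in 10 lies near the background. The groups did not overlap for 2 genes that were lower and 1 that was higher, against 20.6% of all tested genes lower and 20.5% higher. The median log2 fold change of the 10 genes was -0.04, with 6 values below 0 and 4 above, and that of all genes tested was 0.03. The range within the pathway was wide, from -0.79 for Pfkl to 0.57 for Pkm. The libraries were made from transcript ends, so CPM was not divided by transcript length when levels of different genes were compared.

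**Figure D1:**
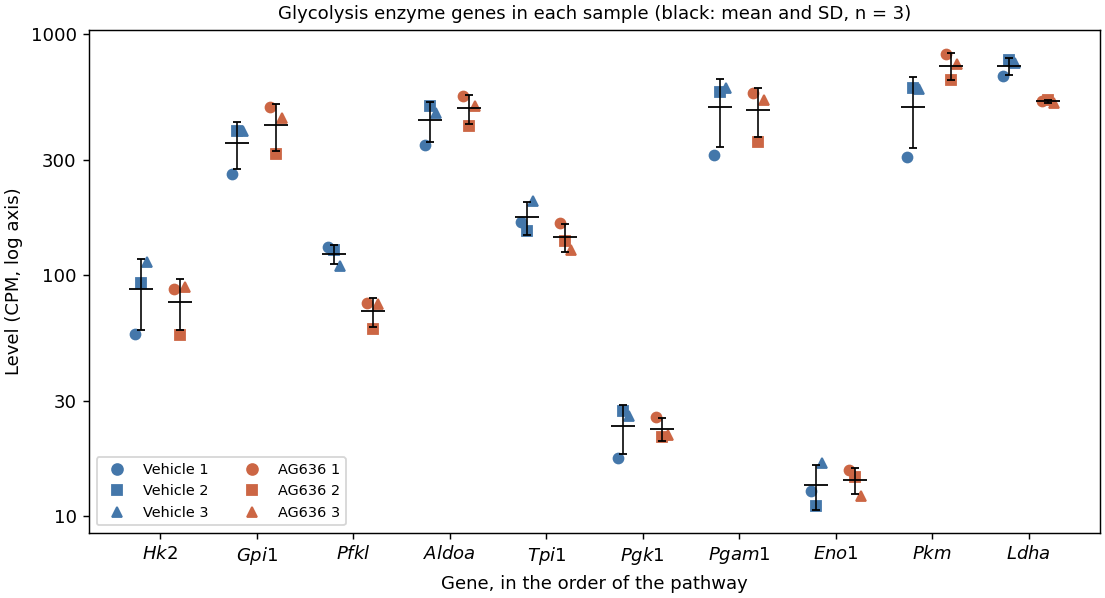
Level of each of the 10 genes in CPM, on a log axis, in the order of the pathway, with 1 point per sample and the mean and SD of each group (n = 3) in black. Pfkl and Ldha are lower in all AG636 samples than in any Vehicle sample, Pkm is higher in all of them, and the groups overlap for the other 7 genes.

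Levels differed widely between the enzymes. Ldha was the most abundant in Vehicle cells at 738 ± 58.1 CPM (SD, n = 3), and its mean level over all 6 samples was above that of 98.3% of the genes tested. Pkm at 501 ± 165, Pgam1 at 498 ± 158, Aldoa at 440 ± 83.2 and Gpi1 at 353 ± 78.1 CPM followed, and the ranges of 1 SD around neighbouring means overlapped among these 4. Within samples, Pkm, Pgam1 and Aldoa were each above Gpi1 in all 6. Tpi1 at 174 ± 27.0, Pfkl at 122 ± 11.4 and Hk2 at 87.8 ± 28.7 CPM formed the middle of the order. Pgk1 at 23.5 ± 5.39 CPM and Eno1 at 13.4 ± 2.83 CPM were the lowest of the 10, with 767 and 441 counts in all, and lay above 41.9% and 29.6% of the genes tested.

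The low level of Eno1 comes with a limit of counting. Of the distinct words of 75 bases in the last 300 bases of its transcripts, 85.7% also occur in Eno1b, and how reads with several matches were counted is not given in the sources used here. Eno1b itself was listed with 18 counts. Gapdh, an enzyme of the same pathway that is outside the 10 genes, shared 73.9% of its words with transcripts of 90 other genes. For Hk2, Pfkl, Pgk1 and Pgam1 the share was 0%, and for the remaining 5 of the 10 genes it was at most 9.29% (Gpi1). The Tpi1 gene overlaps Spsb2 on the opposite strand, with 304 counts listed for Spsb2 and 5181 for Tpi1, and whether counting used the strand is not given in the sources used here.

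The first steps take up glucose carbon and commit it to the pathway. Hk2 (chr6:82725025-82774454) encodes hexokinase 2, which phosphorylates glucose. Its level was 56.9, 93.0 and 113 CPM in Vehicle 1, 2 and 3 and 87.3, 56.1 and 88.9 CPM in AG636 1, 2 and 3. The groups overlapped fully, and the log2 fold change of -0.18 had a 95% interval of -0.74 to 0.38. Gpi1 (chr7:34201330-34230336), glucose-6-phosphate isomerase, was at 263, 397 and 398 CPM against 499, 318 and 448 CPM. Its log2 fold change was 0.26, with an interval of -0.18 to 0.70, and Vehicle 1 and AG636 2 were the low samples of their groups for both genes.

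Pfkl (chr10:77986947-78010083) encodes the liver-type subunit of phosphofructokinase 1, which catalyzes the committed step. It was the gene with the largest change among the 10. Its level was 131, 127 and 109 CPM in the Vehicle samples and 76.5, 59.4 and 75.9 CPM in the AG636 samples, from 288 to 972 counts per library. Every AG636 sample was below every Vehicle sample. Pfkl fell to 0.577 of its Vehicle level, a log2 fold change of -0.79 ± 0.14 (SE, n = 3 per group, adjusted p = 0.00678, edgeR's quasi-likelihood test). An exact two-sided permutation test of log2 CPM gave p = 0.1, the smallest value that 3 samples against 3 allow. Of all genes tested, 6.05% had a lower log2 fold change.

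The triose steps showed no called gene. Aldoa (chr7:126795234-126800751), the aldolase that cleaves fructose 1,6-bisphosphate, was at 346, 503 and 471 CPM in Vehicle and 554, 417 and 506 CPM in AG636 samples, with a log2 fold change of 0.16 and an interval of -0.19 to 0.52. Tpi1 (chr6:124810586-124814296), which interconverts the triose phosphates, was at 165, 152 and 204 CPM against 165, 138 and 127 CPM. Its log2 fold change was -0.27, with an interval of -0.61 to 0.06, and the groups overlapped because AG636 1 lay within the Vehicle range. Pgk1 (chrX:106187100-106203699), phosphoglycerate kinase and the first ATP-forming step, gave -0.04 with an interval of -0.51 to 0.42, from 17.3, 27.2 and 25.9 CPM against 25.7, 21.2 and 21.5 CPM.

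The next enzymes of the lower pathway were also not called. Pgam1 (chr19:41911871-41918664), phosphoglycerate mutase, was at 316, 579 and 598 CPM in Vehicle and 570, 359 and 531 CPM in AG636 samples. Its group means differed by far less than the spread within either group (log2 fold change -0.03, interval -0.57 to 0.50). Eno1 (chr4:150236721-150248879), enolase 1, was at 12.7, 11.0 and 16.5 CPM against 15.5, 14.4 and 12.1 CPM, with a log2 fold change of 0.07 and an interval of -0.43 to 0.58. The sign of the change for Pgk1 and Pgam1 was positive when counts were scaled by library size alone, at 0.04 and 0.05.

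Pkm (chr9:59656368-59679375) encodes the muscle-type pyruvate kinase, whose spliced forms PKM1 and PKM2 cannot be separated by counts of transcript ends. Its level was 310, 597 and 595 CPM in Vehicle 1, 2 and 3 and 829, 643 and 754 CPM in AG636 1, 2 and 3. All AG636 samples were above all Vehicle samples, but Vehicle 1 was far below the other Vehicle samples and AG636 2 came close to them. The log2 fold change was 0.57 ± 0.22 (SE, n = 3 per group), with an interval of 0.07 to 1.06, and it missed the threshold at an adjusted p of 0.0921 by edgeR. Without Vehicle 1 alone the log2 fold change was 0.30 (adjusted p = 0.192 by edgeR). Without Vehicle 1 and AG636 2, a choice made after seeing the data, it was 0.41 with an adjusted p of 0.0496 by edgeR, and without a filter on low counts 0.54 with an adjusted p of 0.000851. The neutrophil and monocyte marker sums were higher in the same 3 samples as Pkm, and their part in this difference was not tested.

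Ldha (chr7:46841475-46855627) encodes the A subunit of lactate dehydrogenase, which reduces pyruvate to lactate. It was the most abundant of the 10 genes in Vehicle cells, at 672, 782 and 760.2 CPM, and measured 527, 536 and 520.4 CPM in AG636 cells. The 3 AG636 samples lay close together (528 ± 7.66 CPM, SD, n = 3) and all below the Vehicle samples. Ldha fell to 0.715 of its Vehicle level, a log2 fold change of -0.48 ± 0.10 (SE, n = 3 per group, adjusted p = 0.0128, edgeR's quasi-likelihood test; exact permutation p = 0.1, the smallest possible). Without AG636 3 the change was -0.47 with an adjusted p of 0.0527 by edgeR, and the call was lost. Ldha and Pkm, which catalyze consecutive reactions, thus stood at opposite ends of the 10 genes apart from Pfkl.

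**Figure D2:**
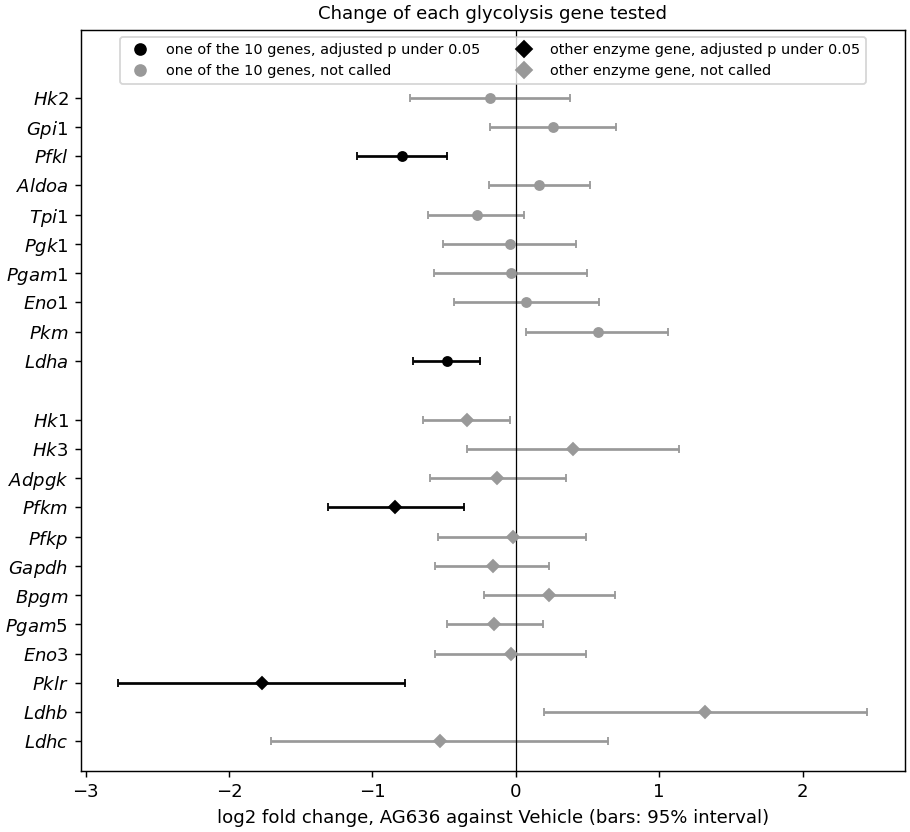
Log2 fold change of AG636 against Vehicle (x axis) with its 95% interval for the 10 genes (circles) and 12 further genes (diamonds), with called genes in black. The 12 are the tested genes of the list of other glycolysis enzymes, which includes Pgam5, a gene that runs no step of the pathway. The called genes Pfkl, Ldha, Pfkm and Pklr lie below 0 with intervals clear of it. The intervals of Hk1, below 0, and of Pkm and Ldhb, above 0, also exclude it, but these genes did not pass the adjusted threshold.

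The 10 genes were compared sample by sample. Vehicle 1 was the lowest of its group for 7 of the 10 genes, and AG636 2 was the lowest of its group for 7. AG636 1 was the highest of its group for 8. The summed level of the 10 genes was 2289 CPM in Vehicle 1 and 2561 CPM in AG636 2, and between 3085 and 3350 CPM in the other 4 samples. The same 2 libraries had the lowest sums of 8 progenitor and granule protease markers, at 2539 and 2013 CPM against 4193 to 5306 CPM. Kit and Ptprc were not low in both. Kit was at 43.1 CPM in Vehicle 1, the highest of the Vehicle samples, and Ptprc was at 193 CPM in AG636 2, between the other AG636 samples. The other markers were each lowest of their group in these 2 libraries. The part of the difference in marker sums in the levels here was not tested. Pfkl went another way within the Vehicle group, with its highest value in Vehicle 1, and Ldha varied little among the AG636 samples. With both libraries left out, Pfkl and Ldha still fell, and the median log2 fold change of the 10 genes was -0.14, against -0.04 with all 6 samples. Over all settings tried, this one included, the median ranged from -0.26 to 0.06.

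**Figure D3:**
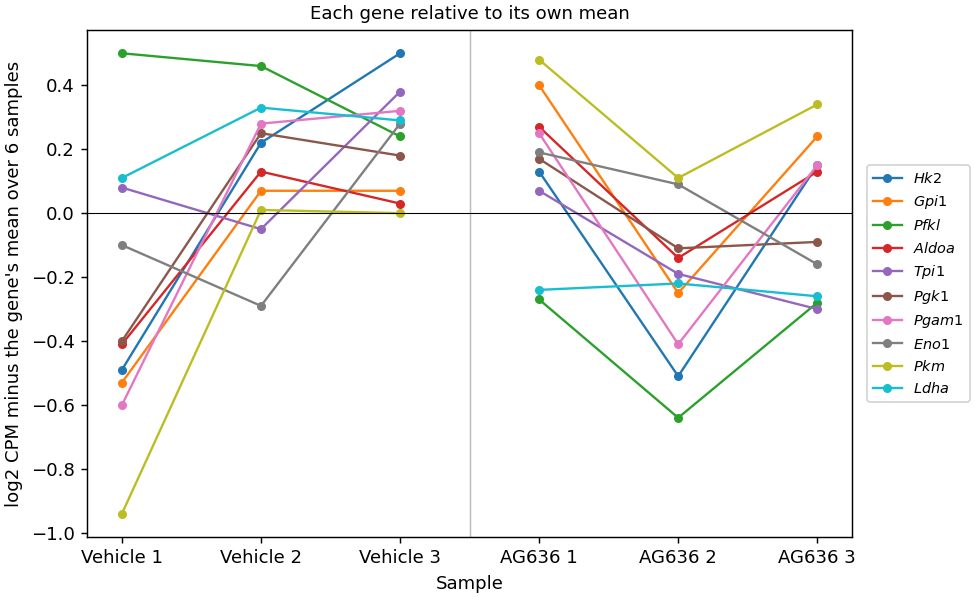
Log2 CPM of each gene minus its own mean over the 6 samples (y axis), with lines joining the samples of a group. Most genes dip in Vehicle 1 and AG636 2, Pfkl is high in Vehicle 1, and Pkm spans the widest range.

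The genes whose profiles over the 6 samples lay nearest the median profile of the 10 were Dpy19l3, Tor3a, Mpnd, Orai1 and Thap2, with a root mean square distance of 0.0665 to 0.0820 in centred log2 CPM. Of the 10 genes themselves, Pgk1 was nearest to that median at 0.0752, Aldoa followed at 0.113, and Pfkl was farthest at 0.479. Pkm was at 0.334 and Ldha at 0.301. This is a description of likeness over 6 samples, which also share the 2 low libraries.

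Most steps of the pathway can be run by other enzyme genes. Of 22 genes listed for this, 12 passed the filter, among them Pgam5, which was listed by its name and runs no step of the pathway. Among these 12, Pfkm and Pklr fell, none rose, and the median log2 fold change was -0.14, with 9 values below 0. The called share of 16.7% was not above the 21.3% of all tested genes. Pfkm, the muscle-type phosphofructokinase subunit, was at 51.3, 44.3 and 31.8 CPM in Vehicle and 26.3, 26.2 and 19.1 CPM in AG636 samples, without overlap. Its log2 fold change was -0.84 ± 0.21 (SE, n = 3 per group, adjusted p = 0.0234 by edgeR). Pklr, the liver and red cell pyruvate kinase, was at 107, 60.3 and 46.6 CPM against 23.8, 32.0 and 7.17 CPM, and fell with a log2 fold change of -1.77 ± 0.45 (adjusted p = 0.0224 by edgeR). Both were highest in Vehicle 1 and lowest in AG636 3. Klf1, an erythroid transcription factor, followed the same order at those ends, at 228 CPM in Vehicle 1 and 53.2 CPM in AG636 3. Pfkl had the order of Klf1 in the Vehicle samples, highest in Vehicle 1 and lowest in Vehicle 3. In the AG636 samples it did not, with Pfkl lowest in AG636 2. The part of erythroid cells in the fall of Pfkl, Pfkm and Pklr was not tested.

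The other tested genes of this list were not called. The hexokinases Hk1 and Hk3 had log2 fold changes of -0.34 (adjusted p = 0.10) and 0.40 (adjusted p = 0.417) by edgeR. The B subunit of lactate dehydrogenase, Ldhb, was at 3.21, 3.01 and 10.9 CPM in Vehicle and 20.2, 7.63 and 13.6 CPM in AG636 samples, a log2 fold change of 1.32 with an adjusted p of 0.0866 by edgeR and 1 AG636 sample inside the Vehicle range. Gapdh, which oxidizes glyceraldehyde 3-phosphate, had -0.16 with an interval of -0.56 to 0.23. The platelet-type subunit Pfkp, the ADP-dependent glucokinase Adpgk, the bisphosphoglycerate mutase Bpgm, Pgam5, the enolase Eno3 and the testis-type Ldhc had values between -0.53 and 0.23. Of the genes that were not tested, Hkdc1, Aldoc, Gapdhs, Pgk2, Pgam2, Eno1b, Eno2 and Ldhd were at 0 to 3.13 CPM in every sample.

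The makeup of single steps was given as shares of the CPM of its genes. At the hexokinase step Hk1 held 69.1 ± 10.5% in Vehicle and 62.1 ± 11.0% in AG636 samples (SD, n = 3), and Hk2 16.0 ± 5.01% and 15.9 ± 2.96%. At phosphofructokinase, Pfkl held 54.6 ± 3.36% and 46.4 ± 7.89% while Pfkp held 26.5 ± 7.03% and 37.9 ± 8.03%. Pkm made up 86.0 ± 10.1% of pyruvate kinase counts in Vehicle and 97.2 ± 1.9% in AG636 samples, with Pklr the remainder, and Pklr took as much as 25.6% in Vehicle 1. Aldoa, Pgk1 and Pgam1 were nearly alone at their steps, with at least 99.3% of the CPM in every sample, and Ldha held 98.8 ± 0.717% and 97.1 ± 1.35% at lactate dehydrogenase.

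Ratios of genes within a sample do not depend on how libraries are scaled, and 6 pairs of isozymes were compared. The log2 ratio of Hk2 to Hk3 was 0.08, 0.30 and -0.02 in Vehicle and -0.74, -0.04 and -0.40 in AG636 samples, a difference of -0.51 without overlap (exact permutation p = 0.1, adjusted over 6 pairs 0.4). The log2 ratio of Ldha to Ldhb differed by -1.92 and that of Pfkl to Pfkp by -0.78, each with an exact permutation p of 0.2 and an adjusted value of 0.4. Pfkl to Pfkm differed by 0.02, so that these 2 subunits, both of which fell, kept about the same ratio. Hk2 to Hk1 and Eno1 to Eno3 differed by 0.18 and 0.12. No pair could pass a threshold of 0.05 at this number of samples. The log2 ratio of Pkm to Ldha, a pair chosen after their values were seen, was -1.12, -0.39 and -0.35 in Vehicle samples and 0.65, 0.26 and 0.54 in AG636 samples. Ldha was above Pkm in every Vehicle sample and below it in every AG636 sample, a difference of 1.10 on the log2 scale.

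**Figure D4:**
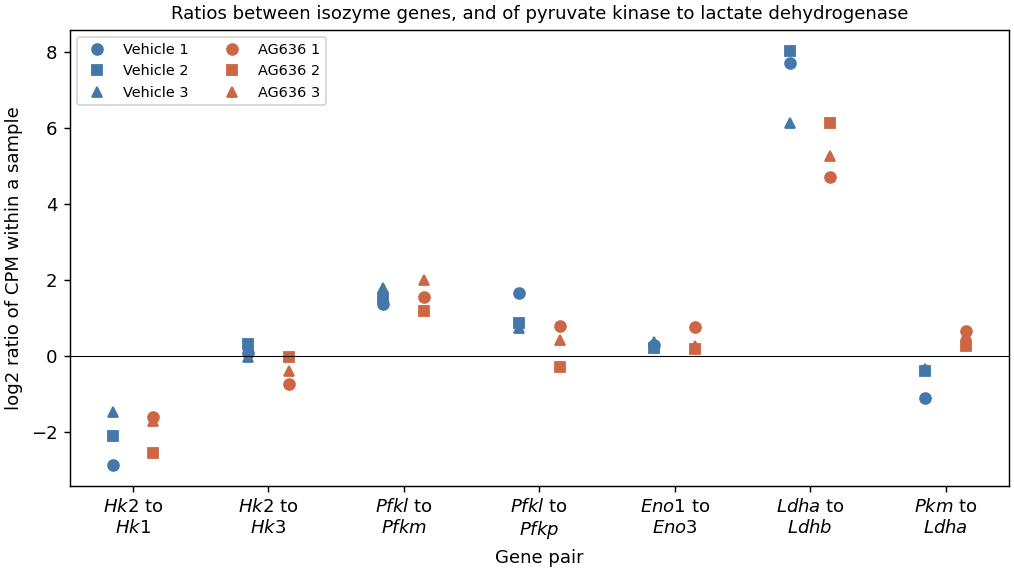
Log2 ratio of CPM within each sample (y axis) for the 6 isozyme pairs and for Pkm to Ldha, with 1 point per sample. The groups are separate for Hk2 to Hk3 and for Pkm to Ldha, where the sign turns from negative in Vehicle to positive in AG636 samples. Separation for Pkm to Ldha follows from the pair having been chosen with Pkm higher and Ldha lower in every AG636 sample.

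Of 10 tested genes for transporters of glucose and lactate, 1 fell and 1 rose, a share near the 21.3% of all tested genes that changed. Slc16a1, which encodes the lactate carrier MCT1, was at 150, 96.4 and 103 CPM in Vehicle and 86.7, 64.3 and 54.4 CPM in AG636 samples, a log2 fold change of -0.76 ± 0.21 (adjusted p = 0.0303 by edgeR). Slc2a9, a carrier best known for urate, was at 4.64, 5.10 and 7.10 CPM against 16.6, 21.7 and 19.4 CPM and rose with a log2 fold change of 1.79 ± 0.24 (adjusted p = 0.00303 by edgeR). The main glucose carriers of blood cells, Slc2a1 and Slc2a3, had log2 fold changes of -0.02 and 0.40, which were not called. The lactate exporter Slc16a3 (MCT4) had 0.34.

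Among 18 tested regulators of the pathway, only Pfkfb4 passed the test, a smaller share than the 21.3% called over all tested genes. It encodes an enzyme that sets fructose 2,6-bisphosphate, the activator of phosphofructokinase 1, and rose from 4.81, 4.97 and 5.22 CPM to 10.8, 7.42 and 8.68 CPM, a log2 fold change of 0.84 ± 0.26 (adjusted p = 0.0452 by edgeR). Its relative Pfkfb3 had 0.32, the HIF subunit gene Hif1a had -0.17 and the pyruvate dehydrogenase kinase Pdk1 had -0.39, none of them called. In gluconeogenesis, which runs against glycolysis, 2 of 5 tested genes changed, against 21.3% of all tested genes. Fbp1, fructose-1,6-bisphosphatase and the reverse of the Pfkl step, was at 10.5, 9.68 and 11.5 CPM in Vehicle and 24.6, 17.7 and 27.0 CPM in AG636 samples, and rose with a log2 fold change of 1.13 ± 0.22 (adjusted p = 0.00845 by edgeR). Pck2, the mitochondrial phosphoenolpyruvate carboxykinase, fell by 0.55 on the log2 scale (adjusted p = 0.0287 by edgeR).

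Of 10 genes of the pentose phosphate pathway and of phosphoribosyl pyrophosphate synthesis, 2 fell and none rose, a called share of 20% against 21.3% of all tested genes. Pgls, 6-phosphogluconolactonase, had a log2 fold change of -0.55 (adjusted p = 0.0156), and Tkt, the transketolase that returns carbon to glycolysis, -0.48 (adjusted p = 0.0412), both by edgeR. Where pyruvate enters mitochondria, the carrier subunit Mpc2 rose by 0.52 and Dlat, the acetyltransferase of pyruvate dehydrogenase, fell by 0.78 on the log2 scale. These were 2 calls among 7 genes, a share of 28.6% against 21.3% of all tested genes. None of 16 tricarboxylic acid cycle genes was called, against 21.3% of all tested genes, though 14 had values below 0 (median -0.19). Of 8 shuttle genes that carry NADH equivalents into mitochondria, only Mdh1 was called, a share of 12.5% against 21.3% of all tested genes. Mdh1, the cytosolic malate dehydrogenase, rose with a log2 fold change of 0.49 (adjusted p = 0.0217 by edgeR).

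All 10 glycogen genes tested were above 0 but none was called, against 21.3% of all tested genes. Their log2 fold changes lay between 0.01 and 0.65 (median 0.30). Among 13 tested genes that are known HIF targets but encode no glycolytic enzyme, 3 rose and none fell, where 10.3% of all tested genes rose, and the median was 0.35. Ddit4, a stress-induced inhibitor of mTORC1, was at 10.9, 21.8 and 29.0 CPM in Vehicle and 60.5, 81.0 and 65.9 CPM in AG636 samples, a log2 fold change of 1.75 ± 0.29 (adjusted p = 0.00521 by edgeR). Ndrg1 rose by 0.70 and Mxi1, a MYC antagonist, by 0.54 on the log2 scale. In 8 of the 13 all AG636 samples were above all Vehicle samples, against 20.5% of all genes tested, and the glycolytic genes showed this once, for Pkm. Ddit4, Ndrg1 and Mxi1 answer to other stimuli besides hypoxia.

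**Figure D5:**
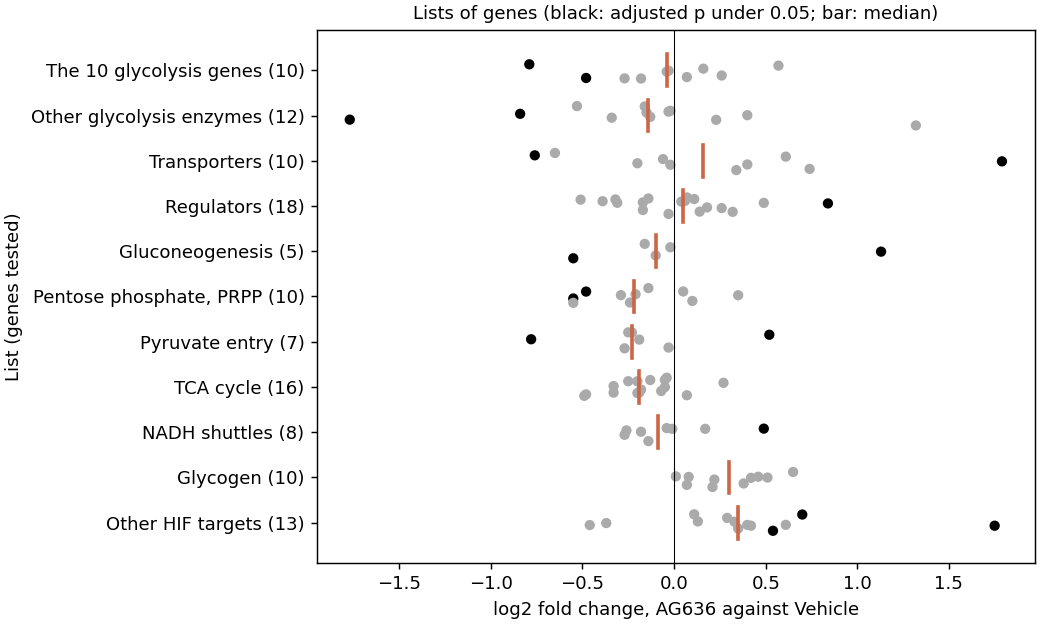
Log2 fold change of AG636 against Vehicle (x axis) for every tested gene of the 10 glycolysis genes and of 10 further lists, with called genes in black and the list median as a bar. The 10 glycolysis genes spread on both sides of 0 with a median of -0.04, tricarboxylic acid cycle genes lie mostly below 0, and glycogen genes and other HIF targets lie mostly above it.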

How the data were processed

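RNA was taken from sorted I1DN cells and sequenced from transcript ends (QuantSeq). The deposited values are raw counts per gene, which the authors made by trimming reads and mapping them to mm10 with HISAT2 and counting with Subread. The submitters' processing notes name cutadapt 1.9.1, HISAT2 2.0.4 and Subread 1.5.0-p3, and other releases are named elsewhere for cutadapt and Subread. Annotation, strand setting and treatment of reads with several matches are not given in the sources used here. The 6 samples are separate mice. Replicates of a group differed by more than sampling noise (chi-square per degree of freedom 6.67 to 15.6). Replicate numbers did not pair samples (correlations of deviations -0.06, -0.18 and 0.22).

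Gene symbols were matched for 54723 of 54838 identifiers. Counts were filtered with filterByExpr (minimum count 10, minimum total 15), scaled by TMM and tested with glmQLFit and glmQLFTest in edgeR 4.0.16 (R 4.3.3), with Benjamini-Hochberg adjustment over 11092 genes and a threshold of 0.05. A gene past it is called changed. CPM used TMM-scaled library sizes, and SE is the log2 fold change divided by the square root of F. Single values were tested by exact two-sided permutation. A count of 0 allows up to 3 counts, 0.392 to 0.637 CPM per library, and reads carried no molecular identifiers, so such limits cover counting error only. Alternatives were DESeq2 1.42.0, limma-voom (limma 3.58.1), other scalings and filters, a replicate block, a stricter threshold, and leaving out libraries. The code was tested on simulated data.

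The 10 genes and all lists were chosen with earlier results of these data known. Named were all 10 genes, every tested gene of the list of other glycolysis enzymes, up to 4 called genes of each other list and the 5 genes with the nearest profile, and some uncalled genes of the lists were named after their values were seen. Words shared between transcript ends were counted in GENCODE vM21, and promoter windows are RefSeq GRCm38.p6. A few listed genes are not reported here.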

Additional observations from a re-analysis of the deposited data

How the results depend on the processing

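Pfkl stayed lower and called under every alternative tried (adjusted p at most 0.0317), and Ldha at an adjusted p under 0.05 in all but the fit without AG636 3. The number of the 10 genes called lower was 1 at an adjusted p under 0.01 and 1 to 2 when a library was left out. The number called higher was 1, Pkm, both without a filter and with Vehicle 1 and AG636 2 left out together, the latter chosen after seeing the data. DESeq2, limma-voom and the other scalings called 2 lower and 0 higher. Over all genes, 2368 were called, 556 at an adjusted p under 0.01, and 851 to 2311 when 1 library was left out, a setting that tests fewer samples.

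The values that changed sign lay, under the main settings, between -0.18 (Hk2) and 0.18 (log2 ratio of Hk2 to Hk1). Under library size alone, which moved the median of all genes by 0.09 on the log2 scale, Pgk1 was 0.04 and Pgam1 0.05. With 1 library left out, Pgk1 ranged from -0.24 to 0.07, Pgam1 from -0.29 to 0.14, Eno1 from -0.07 to 0.22 and Hk2 from -0.43 to 0.02. The log2 ratios of Hk2 to Hk1, Pfkl to Pfkm and Eno1 to Eno3 ranged from -0.17 to 0.52, from -0.19 to 0.22 and from -0.06 to 0.23. The cause was not tested.

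With the replicate number as a block (replicate block), 1960 genes were called, Pfkl (log2 fold change -0.80, adjusted p = 0.0139 by edgeR) and Ldha (-0.48, adjusted p = 0.0253 by edgeR) among them, and no call among the 10 genes changed. The labels share only numbers between groups, and same-numbered samples did not deviate together. Pgk1 and Eno1 had the fewest counts of the 10 genes, and their intervals reached 0.42 and 0.58. Their SE of 0.21 and 0.23 was near the 0.24 of Pgam1, which had 16294 counts. At an unadjusted p under 0.05, 4112 genes passed in edgeR.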
